A study of Mus musculus with 20 samples.

Results

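Described here are 10 immediate early genes across 20 RNA-seq libraries of mouse bone marrow: Fos, Fosb, Jun, Junb, Jund, Egr1, Egr2, Egr3, Ier2 and Atf3. They were chosen by name from the deposited count table, whose 26005 rows carry 20377 gene symbols, and all 10 were found, each with 1 row. Male 129S4 mice, all 4 months old, were Fancd2-/- or wild-type, and ate a diet holding 300 mg/kg oxymetholone, a synthetic androgen, or a placebo diet for 3 months. The sorted populations were erythroblasts (Ter119+, CD71-high, FSC-high) and KSL cells (cKit+ Sca1+ Lin-, the fraction that holds stem and early progenitor cells), and unsorted whole marrow was sequenced beside them. Erythroblasts came from wild-type mice only, with 3 oxymetholone and 3 placebo libraries of 1 mouse each. KSL cells came as 3 libraries each of Fancd2-/- oxymetholone, Fancd2-/- placebo, wild-type oxymetholone and wild-type placebo mice, every library a pool of 5 mice. Whole marrow came as 1 library each of Fancd2-/- and wild-type placebo mice, each again of 5 mice. Nothing in the labels says whether different pools were drawn from different mice, so p-values measure the spread between these libraries.

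Immediate early genes are transcribed within minutes of a signal, without new protein synthesis, when kinases such as ERK act on serum response factor and its partners at their promoters. Their products are mostly transcription factors. FOS proteins pair with JUN proteins as AP-1, and EGR proteins bind GC-rich elements. In blood-forming tissue Egr1 is known for keeping stem cells quiescent and Junb for restraining stem cell expansion. The same genes are also known to respond to tissue dissociation and cell sorting. Whole marrow was spared the sorting only, and how it was otherwise handled is not described here. Levels are given as CPM (counts divided by library size, the usual depth-scaled unit) after TMM scaling over all 20 libraries, and a change is called where edgeR's quasi-likelihood test gave a Benjamini-Hochberg adjusted p under 0.05 over all genes tested.

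Depth ran between 17.2 M and 20.8 M counts for erythroblasts and between 10.8 M and 121.3 M for KSL cells. The Fancd2-/- whole marrow library held 106.9 M counts and the wild-type one 100.2 M. The targeted gene Fancd2 had 4.69 to 6.16 CPM in the 6 Fancd2-/- KSL libraries, against 12.3 to 16.5 CPM in the 6 wild-type KSL libraries. The 8 KSL markers summed to 0.444 to 1.97 CPM in erythroblasts, with Meis1 at 0, and to 1950 to 2860 CPM in KSL cells. The 8 erythroblast markers summed to 58500 to 69000 CPM in erythroblasts and to 42.6 to 187 CPM in KSL cells. One KSL library, Fancd2-/- placebo replicate 3, stood apart: its first principal component score was 66.9 against -23.5 to 4.5 in the other 11. Its stromal collagen transcript Col1a1 was at 8.45 CPM, against at most 0.758 CPM in the other KSL libraries, and values that rest on it are marked. Its part in the members' levels was not tested.

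Promoter sequence from RefSeq (GRCm38.p6, 250 bases before to 50 after the annotated start) was at hand for 7 of the 10 genes: Fos, Fosb, Jun, Junb, Jund, Egr2 and Atf3. The promoters of Fos, Fosb and Egr2 are shown because each holds a match to 1 of the 5 motifs searched before its start, and because Fos and Egr2 carry the largest oxymetholone differences in KSL cells. Both strands were searched, and overlaps between motifs were kept. Capitals mark the motif: the TATA box (TATAAA) of Fos, 33 to 28 bases before the start; the EGR element (GCGNGGGCG) of Fosb, 50 to 42 bases before it; and the CArG box of Egr2, the site of serum response factor, 72 to 63 bases before it. The Fos window is chr12:85473640-85473939 (plus strand), that of Fosb chr7:19309996-19310295 (minus strand), and that of Egr2 chr10:67537619-67537918 (plus strand), 1 of its 5 annotated starts.
Fos: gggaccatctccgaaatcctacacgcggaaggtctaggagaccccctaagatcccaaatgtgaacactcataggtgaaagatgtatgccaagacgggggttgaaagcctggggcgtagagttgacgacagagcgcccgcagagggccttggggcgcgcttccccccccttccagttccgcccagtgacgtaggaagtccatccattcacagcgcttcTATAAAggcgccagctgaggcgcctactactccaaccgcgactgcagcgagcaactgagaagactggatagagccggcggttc
Fosb: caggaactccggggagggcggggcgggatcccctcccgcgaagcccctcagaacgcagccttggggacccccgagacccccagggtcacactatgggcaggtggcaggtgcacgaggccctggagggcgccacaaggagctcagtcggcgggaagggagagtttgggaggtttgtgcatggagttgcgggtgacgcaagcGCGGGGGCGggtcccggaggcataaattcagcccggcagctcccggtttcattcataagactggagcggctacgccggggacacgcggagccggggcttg
Egr2: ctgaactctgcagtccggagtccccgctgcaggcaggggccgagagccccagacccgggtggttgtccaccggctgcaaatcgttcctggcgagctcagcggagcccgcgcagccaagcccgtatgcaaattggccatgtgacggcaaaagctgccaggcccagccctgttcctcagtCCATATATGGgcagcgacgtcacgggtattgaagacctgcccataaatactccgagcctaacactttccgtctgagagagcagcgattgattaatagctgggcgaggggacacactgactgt
A CArG box lay in 1.63% of the 32851 promoters of the table and in Egr2 alone among the 7 genes, at 4 of its 5 starts. The Egr2 windows that begin at chr10:67537619, 67537620 and 67537680 overlap and hold the same site. The window that begins at chr10:67537316 holds another. The EGR element lay in 5.55% of promoters, among the 7 in Fosb only. TATAAA lay in 13.6% of promoters, and among the 7 in Fos and in Junb, there at the first 6 transcribed bases. The cAMP response element TGACGTCA (1.79% of promoters) and the AP-1 element TGANTCA (7.81%) matched none of the 7 windows. A match is a description of letters only, and a window with no match says nothing of the factor.

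The genes lie apart in the genome (mm9). Fos (NM_010234) is at chr12:86814851-86818219 on the plus strand and Fosb (NM_008036) at chr7:19888045-19895394 on the minus strand. Jun (NM_010591) is at chr4:94715727-94718913, Egr2 (NM_010118) at chr10:67000617-67004936, Egr3 (NM_018781) at chr14:70477252-70479964 and Atf3 (NM_007498) at chr1:192994176-193007212. Chromosome 8 carries 3 of them, Jund (NM_010592) at chr8:73221638-73224515, Ier2 (NM_010499) at chr8:87185230-87186751 and Junb (NM_008416) at chr8:87500811-87502617. Counts are of whole transcripts, so exons and untranslated regions were not told apart.

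Levels of the 10 genes differed widely within KSL cells. Divided by transcript length, which allows genes to be compared, Ier2, a small nuclear protein of the early growth response, led with a mean of 98.3 CPM per kb over the 12 KSL libraries. Junb followed at 28.7 CPM per kb, then Egr1 at 18.5, Jund at 9.53, Fos at 5.87 and Jun at 2.02 CPM per kb. Fosb, Atf3, Egr2 and Egr3 were all below 0.1 CPM per kb, at means of 0.0924, 0.0789, 0.0648 and 0.0174. Between neighbours in this order, ranges over the 12 libraries were separate only for Ier2 over Junb and for Jun over Fosb. The other neighbours overlapped.

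Across the 12 KSL libraries Egr1, a zinc finger factor, and Fos, the prototype AP-1 subunit, varied most among the 6 genes with sizeable counts. Egr1 ranged from 11.4 to 101.9 CPM with a median of 52.7, and its highest library was 8.97 times its lowest. Fos ranged from 3.85 to 31.5 CPM with a median of 9.90, a span of 8.18 times. Both were lowest in the same library, wild-type placebo replicate 2. The range was narrower for Ier2 (109.0 to 185.7 CPM, median 149.2, 1.70 times), Jund (17.1 to 41.9 CPM, median 23.5, 2.46 times), Jun (4.69 to 11.7 CPM, median 5.79, 2.50 times) and Junb (30.8 to 80.5 CPM, median 49.4, 2.62 times). The highest Jun and Junb levels were both in Fancd2-/- placebo replicate 3, the library that stood apart, and the next highest were 7.84 CPM for Jun and 63.3 CPM for Junb. Atf3, a stress-induced factor of the ATF family, never exceeded 0.270 CPM in KSL cells, and Egr3 never exceeded 0.144 CPM. A count of 3, taken as the floor, is worth 0.0180 to 0.191 CPM in these libraries, so both genes were near or under what could be counted in most of them, and neither passed the low-count filter for testing. Atf3 averaged 0.196 ± 0.053 CPM in Fancd2-/- oxymetholone, 0.159 ± 0.11 CPM in Fancd2-/- placebo, 0.101 ± 0.091 CPM in wild-type oxymetholone and 0.170 ± 0.018 CPM in wild-type placebo KSL cells (SD, n = 3 each). Egr3 had 5, 1, 24 and 10 counts in all in those 4 groups of libraries.

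**Figure D1:**
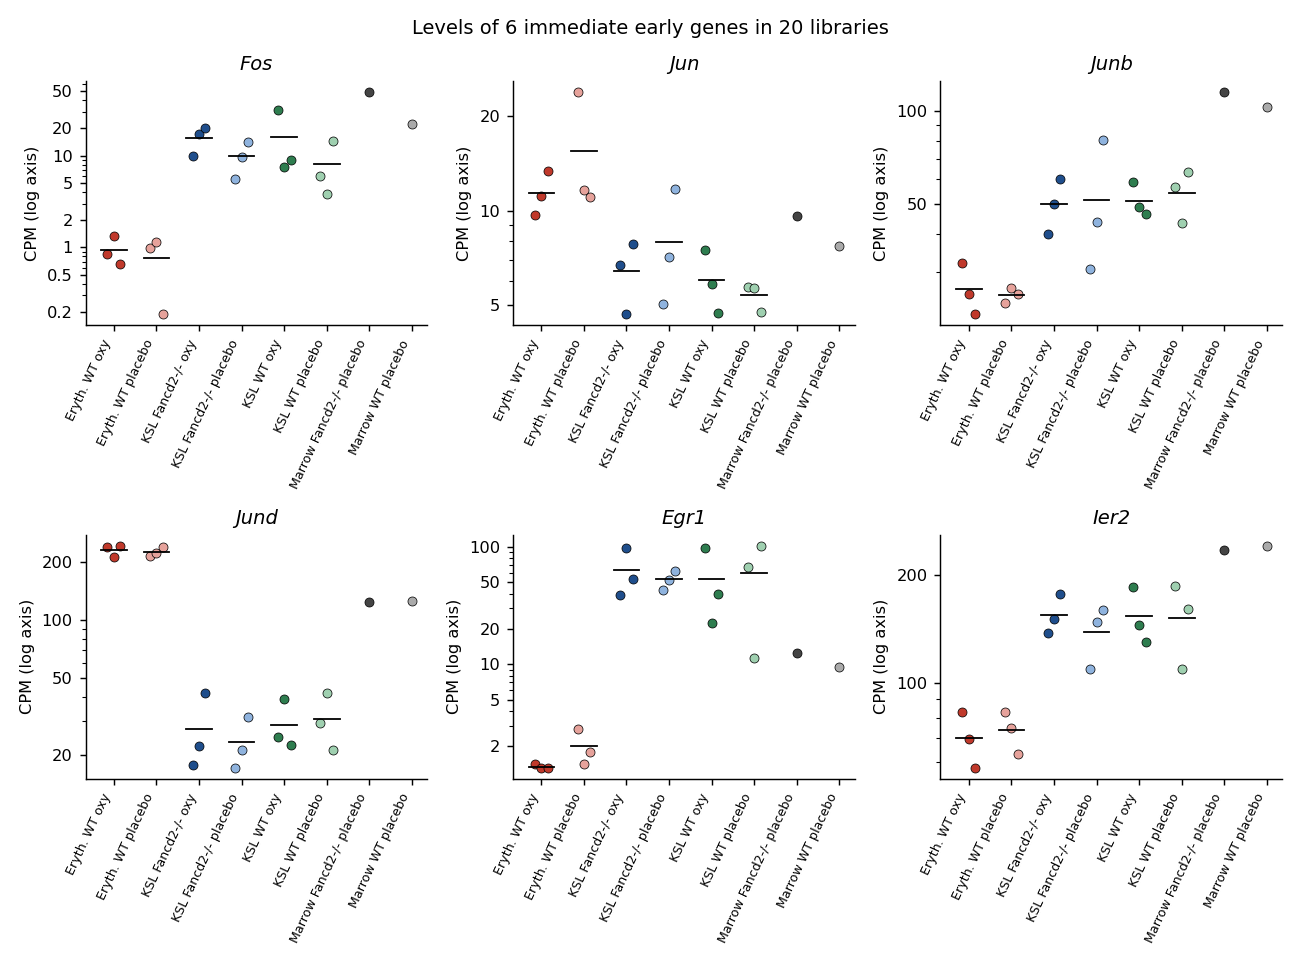
Level of 6 immediate early genes in each of the 20 libraries, in CPM with TMM scaling on a log axis, by group; points are libraries and bars are means of the groups with 3 libraries. Fos and Egr1 are lowest in erythroblasts (0.187 to 1.32 and 1.32 to 2.81 CPM), Jund is highest there (211.5 to 243.1 CPM), and the 4 KSL groups overlap for every gene.

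Oxymetholone in Fancd2-/- KSL cells was the comparison at which the study aimed. Fos had 10.02, 17.2 and 19.8 CPM in the 3 oxymetholone libraries, against 5.501, 9.77 and 14.1 CPM in their placebo partners, which shared a flow cytometer setting pair by pair. It was higher in each pair, by 1.82, 1.76 and 1.40 times, but the groups overlapped. With the pair as a block, its log2 difference was 0.70 ± 0.49 (95% interval -0.48 to 1.88), with an edgeR adjusted p of 0.7065, in a fit that pools the spread of the Fancd2-/- and wild-type pairs. Within the 3 Fancd2-/- pairs alone the log2 ratios were 0.86, 0.81 and 0.49, and a fit on those 6 libraries gave 0.71 (edgeR adjusted p = 0.5739), again not called. Jund and Ier2 were also higher in all 3 pairs, by 1.03, 1.05 and 1.34 times for Jund and by 1.26, 1.01 and 1.11 times for Ier2. Their log2 differences were 0.17 ± 0.12 and 0.16 ± 0.14 (edgeR adjusted p = 0.6989 and 0.7354). Among all 13259 genes tested, 8.72% were higher in 3 of 3 pairs, and 3 of the 8 members tested were.

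Egr1 had 38.8, 97.2 and 53.2 CPM in Fancd2-/- oxymetholone libraries, against 43.3, 52.2 and 62.6 CPM in placebo ones. Only the second pair was higher with oxymetholone, and the log2 difference was 0.16 ± 0.51 (-1.12 to 1.43). It was 0.42 without the third pair and -0.23 without the second, so its sign rests on 1 pair. Junb had 39.8, 49.9 and 60.2 CPM with oxymetholone and 30.8, 43.7 and 80.5 CPM with placebo. It was higher in 2 pairs and lower in the third, with a log2 difference of 0.03 ± 0.17. Jun had 6.74, 4.69 and 7.84 CPM with oxymetholone and 5.06, 7.11 and 11.7 CPM with placebo, a log2 difference of -0.30 ± 0.22, or -0.09 without the third pair, which holds the library that stood apart. Fosb, an AP-1 subunit close to Fos, stayed at 0.262 to 0.462 CPM with oxymetholone and at 0.135 to 0.322 CPM with placebo. Its log2 difference of 0.68 ± 0.57 rests on 6 to 70 counts with oxymetholone and 5 to 14 with placebo.

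None of the 8 members tested (Atf3 and Egr3 were below the low-count filter) was called in Fancd2-/- KSL cells, by edgeR or by DESeq2, and none had an unadjusted p under 0.05. The background was equally empty, with 0.0% of 13259 genes called by edgeR and 6.81% at an unadjusted p under 0.05. The median log2 difference of the 8 was 0.16, against -0.01 over all genes tested. The rest of the pathway also gave no call: none of 22 tested other immediate early genes, 15 feedback regulators, 13 dimer partners, 15 upstream kinases and serum response factor partners, and 6 heat shock genes of cell handling. The smallest p values in these lists belonged to Rhob (log2 -0.45), a small GTPase of the early response, Dusp5 (0.49), a nuclear ERK phosphatase, Batf (-0.39), an AP-1 factor of lymphoid cells, Mkl1 (0.28), a partner of serum response factor, and Hsph1 (0.26), a chaperone. Their edgeR adjusted p values were 0.688 to 0.751.

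The same drug in wild-type KSL cells gave Fos levels of 31.5, 7.55 and 8.998 CPM with oxymetholone, against 6.02, 3.85 and 14.3 CPM with placebo. The first pair was 5.23 times higher, the second 1.96 times higher and the third lower (0.628 times), so the groups overlapped. The log2 difference was 0.97 ± 0.52 (-0.28 to 2.22), with an edgeR adjusted p of 0.9991. It was 0.22 without the first pair and 1.71 without the third (edgeR adjusted p = 0.2272), so 1 pair decides its size. Egr1 moved with Fos pair by pair: 97.2, 22.6 and 40.0 CPM with oxymetholone and 67.8, 11.4 and 101.9 CPM with placebo, which is 1.43, 1.99 and 0.393 times. Its log2 difference was 0.11 ± 0.52.

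Egr2, a close relative of Egr1 whose promoter with its CArG box is shown above, was higher with oxymetholone in all 3 wild-type pairs. It had 0.288, 0.0813 and 0.337 CPM with oxymetholone, against 0.0614, 0.0300 and 0.127 CPM with placebo. These levels rest on 13, 13 and 7 counts with oxymetholone and on 3, 5 and 2 counts with placebo. The log2 difference was 1.68 ± 0.77, with an unadjusted p of 0.04805 and an edgeR adjusted p of 0.9991, so it was not called. It was the 1 member at an unadjusted p under 0.05, against 2.69% of all genes, and the 1 member higher in 3 of 3 pairs, against 11.2% of all genes. In Fancd2-/- cells Egr2 had 0, 0.146 and 0.297 CPM with oxymetholone and 0.0803, 0.0690 and 0.787 CPM with placebo, and the pairs disagreed in direction (log2 -0.89 ± 0.79, or 0.21 without the third pair).

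Ier2, Junb, Jund, Jun and Fosb showed log2 differences of 0.05, -0.05, -0.08, 0.17 and 0.18 in wild-type KSL cells, all smaller than their standard errors of 0.12 to 0.55. None of the 8 members was called, by edgeR or DESeq2, where edgeR called 0.0% of all genes, and none of the other pathway lists held a call. Their smallest p values were those of Nr4a1 (log2 0.52), an orphan nuclear receptor of the early response, Spred2 (-0.39), an inhibitor of ERK signalling, Batf2 (-0.53), Rps6ka3 (0.21), a kinase below ERK, and Hsp90aa1 (0.22), all with an edgeR adjusted p of 0.9991. The interaction between genotype and drug called none of the 8 members and 0.0% of all genes by edgeR, while DESeq2 called no member. Without adjustment, 3.45% of genes and 1 member passed 0.05. That member was Egr2, with a log2 interaction of -2.57 ± 1.11 (edgeR adjusted p = 0.9529). In the other lists the smallest p values were those of Rhob (-0.48), Nab2 (0.59), Batf2 (0.58), Rps6ka3 (-0.46) and Hspa8 (-0.17), with the same adjusted p. Without the third Fancd2-/- pair, which holds the library that stood apart, the Egr2 value was -1.48. For Fos the interaction was -0.27 ± 0.72 (-1.98 to 1.44), an interval that allows the drug's difference to be larger in either genotype. The interactions of Fosb (0.50 ± 0.79), Jun (-0.46 ± 0.31), Jund (0.25 ± 0.17), Ier2 (0.10 ± 0.19), Junb (0.08 ± 0.24) and Egr1 (0.05 ± 0.73) had edgeR adjusted p values of 0.9529 or more.

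**Figure D2:**
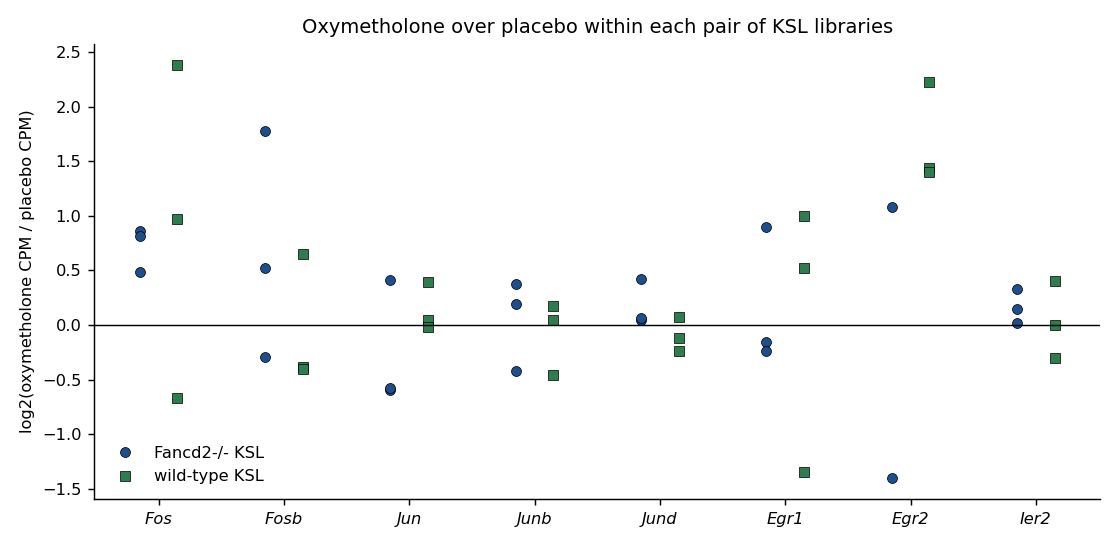
Log2 ratio of oxymetholone CPM to placebo CPM within each of the 3 Fancd2-/- pairs (circles) and 3 wild-type pairs (squares) of KSL libraries, for the 8 members tested; the Egr2 pair with 0 counts on oxymetholone is left out. Fos lies above 0 in 3 of 3 Fancd2-/- pairs and 2 of 3 wild-type pairs, Egr2 in 3 of 3 wild-type pairs, and Egr1 on both sides of 0 in both genotypes.

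No member passed the threshold between Fancd2-/- and wild-type KSL cells on the same diet. Genotype was constant within each pair that shared a cytometer setting, so the genotypes were compared across settings, without a block. On placebo, 1.28% of 13259 genes were called by edgeR and none of the 8 members was, nor by DESeq2, which called 809 genes against 170. Fos ranged over 5.501 to 14.1 CPM in the Fancd2-/- placebo libraries, against 3.85 to 14.3 CPM in the wild-type placebo libraries, a log2 difference of 0.39 ± 0.60. It was 0.02 without Fancd2-/- placebo replicate 3 and 1.09 without wild-type placebo replicate 3, so single libraries decide its size. Egr1 spanned 43.3 to 62.6 CPM in Fancd2-/- placebo libraries and 11.4 to 101.9 CPM in their wild-type counterparts. The Fancd2-/- range lay wholly inside the wild-type range, and the log2 difference was -0.16 ± 0.73. At an unadjusted p under 0.05 stood 19.6% of all genes and 1 member, Egr2, with a log2 difference of 2.70 ± 1.13 (edgeR adjusted p = 0.2117).

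That Egr2 value rests on 1 library. Fancd2-/- placebo replicate 3 had 0.787 CPM of Egr2, from 35 counts, against 0.0690 and 0.0803 CPM in the other Fancd2-/- placebo libraries and 0.0300 to 0.127 CPM in wild-type ones. Without it the log2 difference was 0.57 (edgeR adjusted p = 0.8513). Jun showed the same pattern, with 5.06, 7.11 and 11.7 CPM in Fancd2-/- placebo libraries, against 4.78 to 5.71 CPM in wild-type ones. Its log2 difference of 0.61 ± 0.29 (edgeR adjusted p = 0.2614) was 0.19 without that library. The other tested members differed by -0.92 ± 0.74 (Fosb), -0.37 ± 0.33 (Jund), -0.09 ± 0.20 (Ier2) and -0.03 ± 0.28 (Junb) log2 units.

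On oxymetholone none of the 8 members tested differed between genotypes by more than 0.50 log2 units with all libraries in the fit, and none was called by edgeR or DESeq2 or had an unadjusted p under 0.05. Over all genes 0.128% were called and 5.57% had an unadjusted p under 0.05. The Fos difference was -0.01 ± 0.58 (-1.26 to 1.24) and the Egr1 difference 0.26 ± 0.73. Without wild-type oxymetholone replicate 1 they were 0.94 and 1.02 (edgeR adjusted p = 0.9156 and 0.9358), and without Fancd2-/- oxymetholone replicate 3 the Egr2 difference of -0.16 ± 0.99 was -1.26. Fosb differed by -0.50 ± 0.68, Jun by 0.10 ± 0.29, Jund by -0.06 ± 0.33, Junb by -0.03 ± 0.28 and Ier2 by 0.02 ± 0.20 log2 units. In the pathway lists no gene was called for Fancd2 loss on either diet. The smallest p on placebo was that of Hsp90aa1, the stress-inducible cytosolic chaperone (log2 0.46, edgeR adjusted p = 0.08348). Zfp36, a destabiliser of early response mRNAs, had a log2 difference of -0.41 (adjusted p = 0.1346), Mkl1 of -0.44, Cebpd of 0.46 and Batf2 of -0.38. On oxymetholone the genes with the smallest p in their lists were Maff (-0.74), Dusp6 (0.53), Mafk (-0.16), Elk3 (-0.22) and Hspa8 (0.34), none with an edgeR adjusted p below 0.5566.

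Erythroblasts and KSL cells differed far more than diet or genotype did within KSL cells. Jund, the AP-1 subunit that is least dependent on induction, had 240.6, 211.5 and 243.1 CPM in oxymetholone erythroblasts, against 24.8, 38.6 and 22.3 CPM in oxymetholone KSL cells of wild-type mice. On placebo it had 214.0, 222.6 and 240.7 CPM in erythroblasts and 29.1, 41.9 and 21.2 CPM in KSL cells. It was 8.17-fold higher on oxymetholone (log2 3.03 ± 0.21, edgeR adjusted p = 3.27e-07) and 7.53-fold higher on placebo (2.91 ± 0.23, adjusted p = 1.964e-06). No erythroblast library overlapped any KSL library for Jund.

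Fos and Egr1 went the other way. Fos had 0.845, 1.32 and 0.658 CPM in oxymetholone erythroblasts and 0.973, 1.16 and 0.187 CPM in placebo ones, while the lowest of the 12 KSL libraries was at 3.85 CPM. Its log2 difference was -4.03 ± 0.90 on oxymetholone (edgeR adjusted p = 0.006032) and -3.24 ± 0.75 on placebo (adjusted p = 0.004849, 9.45-fold lower). Egr1 had 1.41, 1.32 and 1.32 CPM in oxymetholone erythroblasts and 2.81, 1.42 and 1.78 CPM in placebo ones, against at least 11.4 CPM in every KSL library. The log2 difference was -5.26 ± 0.86 on oxymetholone (edgeR adjusted p = 0.002464) and -4.84 ± 1.20 on placebo (adjusted p = 0.01592, 28.7-fold lower). With any 1 erythroblast placebo library left out the placebo difference of Egr1 stayed at -5.17 to -4.67 but lost its call (edgeR adjusted p = 0.05784 to 0.06765). Both genes rest on few erythroblast counts, 2 to 15 per library for Fos and 14 to 26 for Egr1.

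Ier2 and Junb fell less. Ier2 had 58.0 to 83.2 CPM in the 6 erythroblast libraries and 109.5 to 185.7 CPM in the 6 wild-type KSL libraries, with log2 differences of -1.09 ± 0.15 on oxymetholone and -0.98 ± 0.17 on placebo (edgeR adjusted p = 2.329e-05 and 0.0001607). Junb had 22.0 to 32.2 CPM in erythroblasts and 43.3 to 63.3 CPM in wild-type KSL cells, with log2 differences of -0.91 ± 0.14 on oxymetholone and -1.03 ± 0.14 on placebo (edgeR adjusted p = 4.692e-05 and 4.879e-06). For neither gene did erythroblast libraries overlap the 6 wild-type KSL libraries. Among Fancd2-/- KSL libraries, placebo replicate 1 had 30.8 CPM of Junb, below the highest erythroblast level.

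Jun depended on the scaling. It had 9.67, 11.2 and 13.4 CPM in oxymetholone erythroblasts, against 7.51, 5.87 and 4.72 CPM in KSL cells, and 23.9, 11.6 and 11.1 CPM in placebo erythroblasts, against 5.71, 5.69 and 4.78 CPM in KSL cells. After TMM scaling it was higher in erythroblasts on both diets (log2 0.94 ± 0.20 and 1.56 ± 0.27, edgeR adjusted p = 0.0006451 and 8.163e-05), but with library totals only it was lower on oxymetholone (-0.47, adjusted p = 0.03636) and not called on placebo (0.15, adjusted p = 0.5721). Leaving out erythroblast placebo replicate 1, its highest library, gave 1.12 on placebo. Library totals shifted the median of all genes by -1.42 log2 units on oxymetholone and by -1.41 on placebo. The TMM factors were 0.524 to 0.569 in erythroblasts and 1.345 to 1.457 in KSL cells. The directions of Jund, Ier2, Junb, Fos and Egr1 held under each of the scalings tried, but their sizes did not. Library totals lowered values as a whole, so that setting could only deepen the falls of Ier2, Junb, Fos and Egr1. With library totals only, on oxymetholone and placebo, the log2 difference was 1.62 and 1.51 for Jund, -2.52 and -2.40 for Ier2, -2.34 and -2.45 for Junb, -5.45 and -4.67 for Fos, and -6.68 and -6.29 for Egr1.

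**Figure D3:**
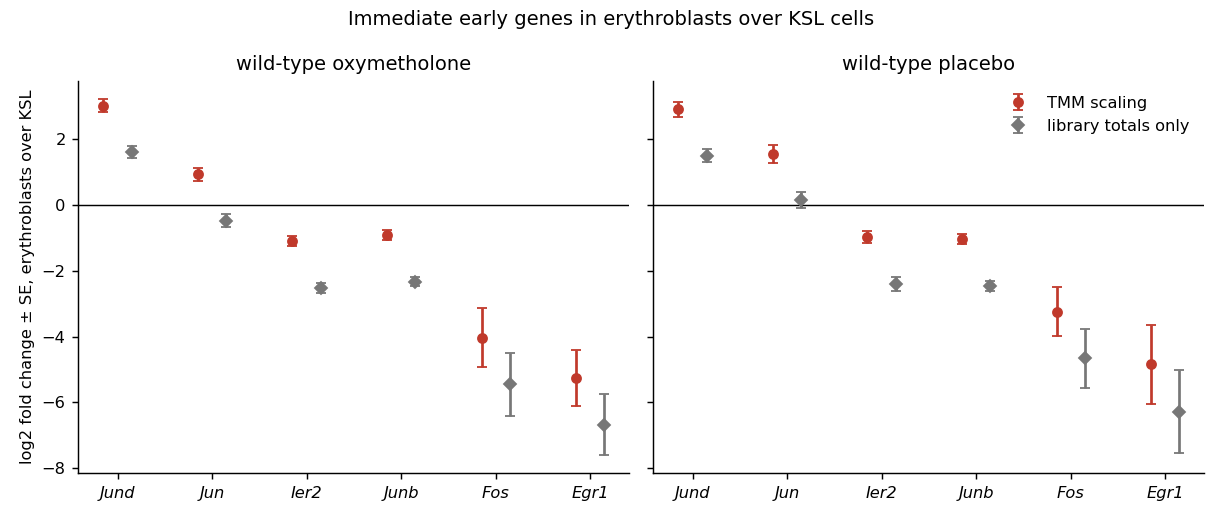
Log2 fold change of erythroblasts over KSL cells for the 6 members tested, on oxymetholone (left) and placebo (right), with TMM scaling (circles) and with library totals only (diamonds); bars are ± SE. Jund lies above 0 and Ier2, Junb, Fos and Egr1 below 0 under both scalings, while Jun is above 0 with TMM scaling and at -0.47 (oxymetholone) and 0.15 (placebo) with library totals only.

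All 6 members tested were called on each diet, 2 higher and 4 lower, but so were 91.5% of genes on oxymetholone (37.5% higher, 53.9% lower) and 91.0% on placebo (37.2% higher, 53.7% lower). A call by itself therefore sets no gene apart in this comparison, nor does a lack of overlap between populations, seen for 92.6% of genes on oxymetholone and 91.9% on placebo. The median log2 difference of the 6 was -1.002 on both diets, against -0.65 on oxymetholone and -0.67 on placebo over all genes tested. Erythroblast libraries came from single mice and KSL libraries from pools of 5, so population and pooling cannot be told apart. In bulk libraries, fewer cells that express a gene and less RNA of it per cell cannot be told apart either. Atf3 was at 0.188 to 0.282 CPM in oxymetholone erythroblasts and 0.281 to 0.757 CPM in placebo ones, and Fosb, Egr2 and Egr3 had at most 6 counts in any erythroblast library. Per kb, the erythroblast order was Jund (79.5 CPM per kb), Ier2 (47.3), Junb (14.4) and Jun (4.23), each range separate from the next, followed by Egr1 (0.541) and Fos (0.406), which overlapped.

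Counts for the genes around the members in placebo erythroblasts against placebo KSL cells are read beside those of all genes, of which 37.2% rose and 53.7% fell. The lists were not tested against each other. In the erythroblast libraries alone, 12 other immediate early genes, 6 feedback regulators and 8 dimer partners passed the low-count filter. So did 15 upstream genes, 4 heat shock genes and 9694 genes in all. Genes that passed here only through KSL cells, where they are high, could only fall, so the filter itself set their falls. The list counts and medians below carry that limit, and so do the falls of named genes in the paragraphs that follow. Which of those named genes passed in erythroblasts alone is not listed here. Of 20 other immediate early genes tested 3 rose and 16 fell, and of 15 feedback regulators 3 rose and 12 fell, with list medians of -2.78 and -4.91 log2 units. Of 13 dimer partners 8 rose and 5 fell (median 1.54), of 15 upstream kinases and serum response factor partners 6 rose and 8 fell (median -0.34), and of 5 heat shock genes 1 rose. The median over all genes tested was -0.67. With library totals only, 2380 of the 12538 genes tested rose and 9249 fell. That is 20.5% of all called genes that rose, where TMM scaling gave 40.9%. Under that setting 3 other immediate early genes rose and 17 fell, 1 feedback regulator rose and 13 fell, 6 dimer partners rose and 6 fell, 2 upstream genes rose and 12 fell, and 1 heat shock gene rose and 1 fell. On oxymetholone, with TMM scaling, 3 other immediate early genes rose and 15 fell, 2 feedback regulators rose and 12 fell, 8 dimer partners rose and 5 fell, 6 upstream genes rose and 8 fell, and of 4 heat shock genes 1 rose and 2 fell.

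Among the other immediate early genes, 2 were abundant in erythroblasts. Ppp1r15a, which directs a phosphatase to the translation factor eIF2, was at 2750 to 3396 CPM in the 6 erythroblast libraries and at 17.5 to 36.4 CPM in the 12 KSL libraries. Btg2, an antiproliferative factor, was at 1448 to 2194 CPM in erythroblasts and 14.0 to 30.7 CPM in KSL cells. Ier5 rose by 2.26 log2 units on placebo. Csrnp1 was at 0.294 ± 0.18 CPM in placebo erythroblasts and 51.2 ± 1.15 CPM in placebo KSL cells (SD, n = 3 each), and Ier3 at 0.564 ± 0.42 CPM in those erythroblasts and 68.3 ± 18.5 CPM in those KSL cells. Rhob was at 1.80 ± 0.46 CPM in erythroblasts and 60.1 ± 5.01 CPM in KSL cells.

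The feedback regulators, which switch the early response off, were led by phosphatases with opposite patterns. Dusp1, a phosphatase of p38 and JNK, was at 548 ± 304 CPM in placebo erythroblasts and 25.9 ± 8.21 CPM in placebo KSL cells (log2 4.49, edgeR adjusted p = 0.001416). Dusp2 was at 0.225 ± 0.052 CPM in those erythroblasts, at or under the floor of 3 counts, and at 209 ± 39.8 CPM in KSL cells. Dusp6, which acts on ERK, was at 0.807 ± 0.42 CPM in erythroblasts and 53.7 ± 8.27 CPM in KSL cells. Nab2, a corepressor of EGR factors, was at 0.633 ± 0.39 CPM in erythroblasts and 41.4 ± 3.11 CPM in KSL cells (SD, n = 3 each). Zfp36l1 rose by 1.47 and Spred1 by 0.34 log2 units with TMM scaling, but Zfp36l1 was not called (0.06) and Spred1 fell (-1.08) with library totals only.

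Of the dimer partners, Mafk, a small MAF protein of globin gene control, was at 606 ± 110.0 CPM in placebo erythroblasts and 56.9 ± 1.5 CPM in placebo KSL cells. Atf4, the main factor of the integrated stress response, rose by 2.98 and Atf1 by 2.75 log2 units. Batf was at 0.0593 ± 0.10 CPM in erythroblasts, under the floor, and 50.2 ± 7.49 CPM in KSL cells. Jdp2 fell by 5.13 log2 units, and Fosl2 fell by 5.26. Upstream, Elk4, a ternary complex factor that binds beside serum response factor, rose by 4.199 log2 units, and its relative Elk3 fell by 5.78. Map2k2, which encodes a kinase of the same cascade, rose by 1.37 log2 units with TMM scaling and was not called with library totals only (-0.04). Mkl1 fell by 3.45, Rps6ka1 fell by 1.52, and the heat shock gene Dnajb1 rose by 2.76 log2 units. Library totals lowered the values as a whole (median shift -1.41 log2 units), so genes that fell could only fall further in that setting. Of the named genes that rose, all but Zfp36l1, Spred1 and Map2k2 kept their direction there.

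Within wild-type erythroblasts, no member was called for oxymetholone. Jund differed by 0.02 ± 0.07 log2 units (-0.12 to 0.16), the tightest interval of any member in any comparison of the drug. Fos differed by 0.28 ± 0.54, Junb by 0.05 ± 0.13 and Ier2 by -0.09 ± 0.15. Jun (-0.45 ± 0.34) and Egr1 (-0.57 ± 0.33) were lower on oxymetholone, but erythroblast placebo replicate 1, highest in both genes, decides these values: without it they were -0.00 and -0.26. None of the 6 members tested was called by edgeR or DESeq2 or had an unadjusted p under 0.05, against 0.0% of 9694 genes called and 1.27% at an unadjusted p under 0.05. None of 12 other immediate early genes, 6 feedback regulators, 8 dimer partners, 15 upstream genes and 4 heat shock genes tested was called. Their smallest p values were those of Sgk1 (log2 0.24), Spred2 (-0.21), Creb1 (-0.07), Elk4 (-0.14) and Hsph1 (-1.13), with an edgeR adjusted p of 0.9996. The difference in drug effect between erythroblasts and KSL cells was called for none of 7 members by edgeR or DESeq2 and held none at an unadjusted p under 0.05, where 0.0155% of 12863 genes were called and 2.45% passed unadjusted. The list genes with the smallest p there were Maff (log2 -5.43), Spry2 (2.27), Batf (2.43), Elk4 (-0.24) and Hsp90aa1 (-0.61), all with an edgeR adjusted p of 1. Among members the value was -2.11 ± 1.89 for Fosb, -0.62 ± 0.36 for Jun, -0.42 ± 1.78 for Egr1, -0.12 ± 0.26 for Ier2 and 0.11 ± 0.21 for Junb. The Fos interval ran from -4.28 to 2.66 log2 units, and that of Jund from -0.64 to 0.88.

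Whole marrow, with 1 library per genotype, allows ratios but no test of genotype. Fos had 49.2 CPM (4376 counts) in Fancd2-/- marrow, against 22.0 CPM (1840 counts) in wild-type marrow. That is 2.23 times as much, with an exact 95% interval for counting error of 2.12 to 2.36. Only 0.0598% of 11708 genes with 200 or more counts were at least that much higher in the Fancd2-/- library, 7 genes with Fos included, and 1.16% differed by 1.5-fold or more in either direction. Fosb was 1.93 times as high (1.06 to 3.68) on 35 counts in Fancd2-/- and 17 in wild-type marrow.

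The other members were closer to equal in whole marrow. Egr1 had 12.4 CPM in Fancd2-/- marrow, against 9.50 CPM in wild-type marrow (1.30 times, 1.19 to 1.43). Jun was 1.25 times (1.13 to 1.39), Atf3 1.17 times (1.05 to 1.30) and Junb 1.12 times (1.09 to 1.15) as high. Jund had 124.3 CPM in Fancd2-/- marrow, against 125.8 CPM in wild-type marrow (0.989 times, 0.963 to 1.02), and Ier2 had 234.2 CPM in Fancd2-/- and 241.1 CPM in wild-type marrow (0.971 times, 0.952 to 0.990). Egr2 had 1.29 CPM in Fancd2-/- and 1.16 CPM in wild-type marrow, and Egr3 had 0.427 CPM in Fancd2-/- and 0.478 CPM in wild-type marrow, both with intervals that include 1. The feedback regulators Dusp1 and Zfp36 were 1.47 and 1.10 times as high. These intervals cover counting error only, not differences between pools of mice. The 7 neutrophil markers summed to 125000 CPM in Fancd2-/- marrow, against 117000 CPM in wild-type marrow, and the 6 monocyte and macrophage markers to 9660 CPM in Fancd2-/- and 8800 CPM in wild-type marrow. The stromal markers summed to 221 CPM in Fancd2-/- and 175 CPM in wild-type marrow, with Col1a1 at 31.7 CPM in Fancd2-/- and 22.3 CPM in wild-type marrow. Their part in the Fos ratio was not tested.

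**Figure D4:**
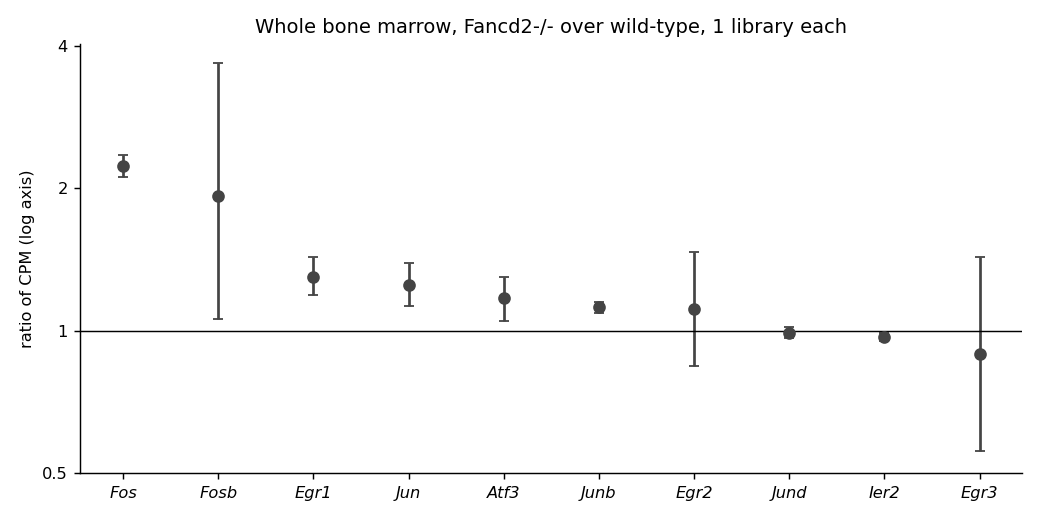
Ratio of CPM in the Fancd2-/- whole marrow library to CPM in the wild-type one for the 10 members, on a log axis; bars are exact 95% intervals for counting error, with 1 library per genotype. Fos stands highest at 2.23, Fosb has the widest interval (1.06 to 3.68), and Jund and Ier2 lie at 0.989 and 0.971.

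Set against whole marrow of the same genotype, placebo KSL cells held more Egr1 and less Fos, Junb, Jund and Atf3 with TMM scaling. The 3 Fancd2-/- KSL libraries had 3.49, 4.21 and 5.05 times the Egr1 CPM of Fancd2-/- whole marrow, and the 3 wild-type KSL libraries had 7.14, 1.20 and 10.7 times that of wild-type whole marrow. Fos ran at 0.199 ± 0.087 times the whole marrow level in Fancd2-/- KSL cells and at 0.367 ± 0.25 times in wild-type ones (SD, n = 3 KSL libraries each). Jund was at 0.186 ± 0.059 times (Fancd2-/-) and 0.245 ± 0.083 times (wild-type) and Junb at 0.449 ± 0.22 and 0.530 ± 0.099 times. Ier2 was at 0.593 ± 0.11 times in Fancd2-/- and 0.630 ± 0.16 times in wild-type cells. Atf3 was farther below than these genes, at 0.0178 ± 0.012 and 0.0223 ± 0.0024 times, from 8.92 CPM in Fancd2-/- and 7.64 CPM in wild-type whole marrow. Its KSL levels rest on few counts, 2 to 12 per Fancd2-/- placebo library and 3 to 26 per wild-type placebo library.

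Jun was at 0.824 ± 0.35 (Fancd2-/-) and 0.697 ± 0.069 times (wild-type), with 1.21 times in the Fancd2-/- library that stood apart. Fosb, at 0.557 ± 0.24 and 1.87 ± 1.37 times, Egr2, at 0.241 ± 0.32 (0.609 in the library that stood apart, 0.0621 and 0.0534 in the others) and 0.0629 ± 0.043 times, and Egr3 rest on few counts.

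With library totals only, Egr1 stood at 7.11 (Fancd2-/-) and 10.8 (wild-type) times whole marrow, Ier2 at 0.989 and 1.06 times, and Jun at 1.37 and 1.17 times in place of 0.824 and 0.697. Fos stood at 0.332 (Fancd2-/-) and 0.625 (wild-type) times, Junb at 0.749 and 0.893 times and Jund at 0.311 and 0.408 times. In that setting wild-type replicate 3 exceeded whole marrow for Fos and Junb, and Fancd2-/- replicate 3 exceeded it for Junb. For Ier2, Fancd2-/- replicates 2 and 3 exceeded it there (201.9 and 220.5 against 194.9 CPM), but not with TMM scaling. The directions of Ier2 in wild-type cells and of Jun in both genotypes against whole marrow therefore depend on the scaling. So does that of Ier2 in Fancd2-/- replicates 2 and 3. The 1 whole marrow library per genotype gives no error of its own, and its cells were not sorted. The 6 monocyte and macrophage markers summed to 230 to 315 CPM in KSL cells and the neutrophil markers to 355 to 1320 CPM, far below whole marrow. Their part in these ratios was not tested.

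No pair of members passed the test for a shared pattern over the 12 KSL libraries. Of 28 pairs among the 8 members tested, 7 had an unadjusted permutation p under 0.05 for Pearson's r, and 0 passed Benjamini-Hochberg adjustment over the 28, for r or for Spearman's rho (8 unadjusted). Fos and Egr1 had r = 0.74 (permutation p = 0.00527, adjusted 0.0531) and rho = 0.64 (p = 0.0306, adjusted 0.126). Without the 2 libraries farthest from the median in Fos r was 0.51. It was 0.62 within Fancd2-/- libraries, 0.78 within wild-type ones and 0.81 with the 4 group means removed. Fos and Ier2 had r = 0.72 (permutation p = 0.00722, adjusted 0.0531) and rho = 0.69 (p = 0.0147, adjusted 0.103), and r = 0.49 without the 2 farthest libraries. Junb and Ier2 had the strongest relation, r = 0.77 (permutation p = 0.00326, adjusted 0.0531) and rho = 0.81 (p = 0.00225, adjusted 0.063), again 0.77 without the 2 farthest. The libraries share a sort setting within pairs, pools of 5 mice and a range of depths.

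Jund and Fos had r = -0.09 (permutation p = 0.791, adjusted 0.82) and rho = 0.08 (p = 0.815, adjusted 0.846) over the 12 libraries. Their r was 0.78 within Fancd2-/- and -0.69 within wild-type libraries (n = 6 each), and this difference was not tested. Jund also differed with depth. In the 3 KSL libraries above 100 M counts (Fancd2-/- oxymetholone 3, wild-type oxymetholone 2 and wild-type placebo 2) it was at 38.6 to 41.9 CPM, against 17.1 to 31.2 CPM in the other 9. Among all genes tested 8.13% were higher in those 3 libraries without overlap. The Jund transcript has a GC content of 62.7%, above that of 98.7% of genes tested. Junb (62.6%) and Ier2 (60.9%) are nearly as GC-rich, and their levels in the 3 deep libraries lay within the range of the other 9. Across genes, the slope of log2 level on GC was 0.153 to 0.262 per 10 points in the 3 deep libraries and -0.325 to 0.158 in the other 9. The part of GC content or depth in the Jund level was not tested. Without the 3 deep libraries, a setting chosen after seeing the data, r was 0.27 for Jund and Fos and 0.68 for Fos and Egr1. In that setting it was 0.55 for Fos and Ier2, and 0.80 for Junb and Ier2.

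**Figure D5:**
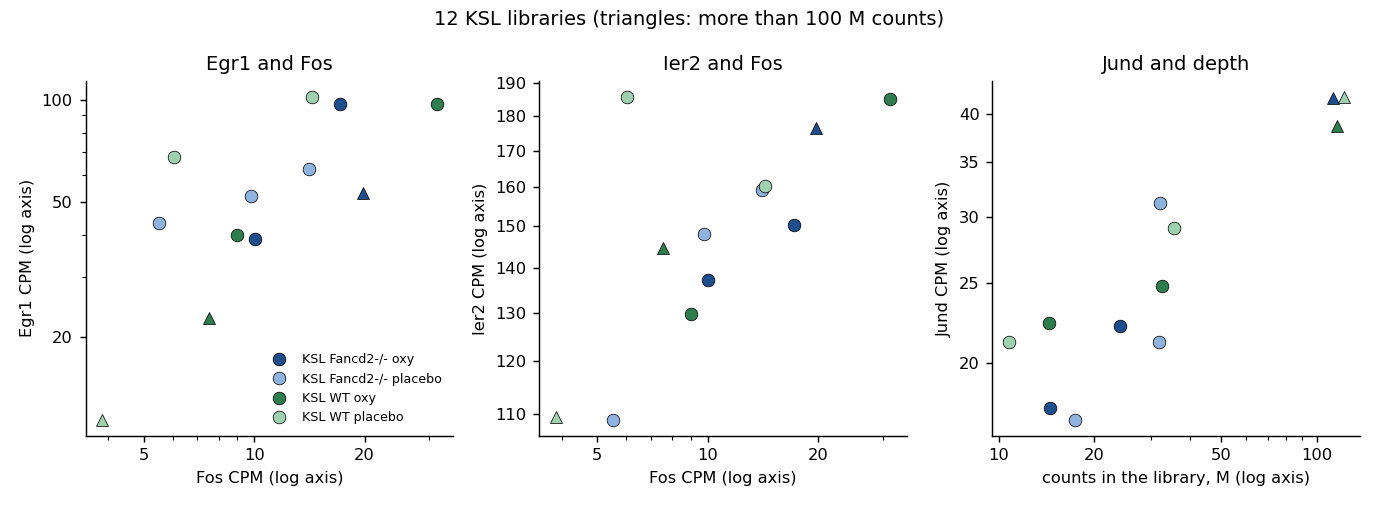
Egr1 against Fos (left), Ier2 against Fos (middle) and Jund against library depth in M counts (right) in the 12 KSL libraries, all in CPM on log axes; colours are the 4 groups and triangles the 3 libraries above 100 M counts. Egr1 and Ier2 have r = 0.74 and 0.72 with Fos, neither past adjustment over 28 pairs, and Jund is at 38.6 to 41.9 CPM in the 3 deep libraries, above the other 9.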

How the data were processed

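RNA was sequenced as 51-base reads, per the labels' protocols, mapped to mm9 with Bowtie and analysed mostly with edgeR, per the submitters' processing notes. The deposited values used are raw read counts per RefSeq transcript in 20 libraries, per the labels and the values themselves. Whether counting used strand, and how reads matching several places were treated, was not given in the sources here, so overlapping and antisense transcripts cannot be told apart. The authors' second table holds a score: the deposited counts scaled to 20.0 M per library and rounded, used only as an alternative. For each symbol the row with the largest total count was kept. A column whose name matches no sample title exactly was taken as the closest title, Fancd2-/- placebo KSL replicate 1. The design text sets that column against a Fancd2-/- oxymetholone library.

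Computed here were CPM with TMM factors over all 20 libraries, and robust quasi-likelihood tests (edgeR 4.0.16, R 4.3.3) on genes that passed filterByExpr, adjusted over all genes tested. Errors are SE of log2 differences and intervals use 95%. Oxymetholone in KSL cells was tested over 12 libraries with a block for the pairs, which the series' design text ties to a common cytometer setting. Deviations of paired libraries from their group means correlated at 0.13, -0.06 and 0.21 in Fancd2-/- and 0.11, 0.26 and 0.13 in wild-type pairs. Other tests used group means. Correlations used log2 CPM with a prior count of 2 and 100000 permutations, two-sided, in SciPy 1.17.1. Alternatives were median-of-ratios scaling, library totals only, no filter, DESeq2 1.42.0, limma 3.58.1 on log2(score + 1), libraries left out, no block and fewer libraries. The scripts were tested on simulated data.

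The members, lists, motifs and tests were chosen with earlier results of these data known. All 10 members were followed, with tests where they passed the filter, and of each other list up to 3 called genes per direction with the smallest p, or else the gene with the smallest p. One gene that this rule names is not reported here.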

Additional observations from a re-analysis of the deposited data

How the results depend on the processing

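Of 65 member differences with a test, recomputed 762 times, 755 kept their direction or stayed uncalled, 5 lost a call and 2 reversed. Both reversals were Jun in erythroblasts over KSL cells on oxymetholone, -0.47 with library totals only and -0.39 with limma on the deposited score, where TMM scaling gave 0.94. The lost calls were Jun on placebo under the same pair of settings (0.15 and 0.13) and Egr1 on placebo without each erythroblast placebo library (-5.17 to -4.67). Values called under neither setting changed sign in 67 recomputations. The count of members called moved by less than 1.5 times in all 106 recomputations. The count of all genes called moved more in 34 of 106, from 170 for Fancd2 loss on placebo to 809 with DESeq2, 11 with only the 6 libraries compared and 19 to 236 with 1 library left out, and from 17 on oxymetholone to 86 with DESeq2, 0 with only 6 libraries and 2 to 8 with 1 left out. For oxymetholone in Fancd2-/- KSL cells it was 0, 16 with no filter and 12 without the first or the second pair. Of the genes called for erythroblasts over KSL cells, the share that was higher was 20.3% (oxymetholone) and 20.5% (placebo) with library totals only, where TMM scaling gave 41% and 40.9%. For Fancd2 loss on placebo it was 24.2% with library totals only and 57.8% with DESeq2, where TMM scaling gave 39.4%. Without the replicate block the log2 difference of Fos with oxymetholone was 0.66 in Fancd2-/- and 1.06 in wild-type KSL cells, and no member was called, as with the block. Of 60 ratios with whole marrow recomputed, 14 moved beyond their bound. For Fancd2-/- over wild-type marrow the bound was the counting interval, and for KSL cells over marrow the SD of the KSL libraries. Depth limits Egr2, Egr3, Fosb and Atf3, which had 0 to 147 counts in any sorted library, and Fos and Egr1 in erythroblasts. The causes of these changes were not tested.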

Other observations

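Outside the members, the gene whose level most followed the mean of the members over the 12 KSL libraries was Cdkn1a, which encodes the cell cycle inhibitor p21 (Pearson r = 0.88 over 10086 genes ranked, given as a description). It had 63.3, 73.5 and 111.3 CPM in Fancd2-/- oxymetholone libraries, 40.0, 79.9 and 99.0 CPM in Fancd2-/- placebo ones, 140.9, 49.0 and 45.1 CPM in wild-type oxymetholone ones and 63.7, 34.5 and 51.3 CPM in wild-type placebo ones. Its highest and lowest libraries, wild-type oxymetholone 1 and wild-type placebo 2, were also the highest and lowest in Fos. Next came Gpd1l (0.82), Gorasp2 (0.81), Egln3 (0.81) and Thap4 (0.80). Of the 4 heat shock genes ranked, all had r above 0 (0.36 to 0.57, median 0.48), where the median over all genes ranked was -0.01. The list medians were 0.18 for other immediate early genes, 0.08 for feedback regulators, -0.04 for dimer partners and 0.08 for upstream genes. The mean of the members, as centred log2 CPM, was highest in Fancd2-/- placebo replicate 3, the library that stood apart (0.59). Wild-type oxymetholone replicate 1 was next (0.58). No r without the library that stood apart is given here.

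Erythroblast placebo replicate 1 held the highest erythroblast level of Jun, Egr1, Atf3, Dusp1 and Hspa1b, but not of Fos, Junb, Jund or Ier2. Junb (23.9 CPM) and Jund (214.0 CPM) were each second lowest of 6 there. Jun was at 23.9 CPM there and at 9.67 to 13.4 CPM in the other erythroblast libraries. Dusp1 was at 898.5 CPM there and at 344.4 to 482.7 CPM in the others. The inducible heat shock gene Hspa1b was at 17.0 CPM there and at 0 to 0.0937 CPM in the others. Among KSL libraries Hspa1b was highest in Fancd2-/- oxymetholone 3 (25.7 CPM) and wild-type oxymetholone 2 (13.6 CPM), and at most 5.92 CPM in the rest. The third library above 100 M counts, wild-type placebo 2, had 1.54 CPM. Whole marrow had 9.11 CPM of it in Fancd2-/- and 2.43 CPM in wild-type mice. Its near-identical neighbour copy shares its sequence, so its counts are uncertain.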
